A study of Homo sapiens with 6 samples.

Results

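The genes described here are 10 parts of the Hippo pathway, found in the deposited table by gene symbol: the coactivators YAP1 and WWTR1 (TAZ), the transcription factors TEAD1 and TEAD4, the kinase LATS2, the adaptors AMOTL1, AMOTL2 and AJUBA, and the target genes ANKRD1 and AXL. All 10 are among the 22701 symbols of the table, and all 10 were among the 10695 genes kept for testing at a mean of at least 1 FPKM (fragments scaled to gene length and library size). Polyadenylated RNA was sequenced from LX-2, an established human line of hepatic stellate cells, which make the collagen of the scarred liver; the study thus rests on a single line. There were 3 libraries with TGF-β alone, whose dose the labels give as 5 µg/mL, and 3 with that TGF-β plus 20 µM LIG (ligustilide, a plant phthalide). No library lacked TGF-β, and its own effect cannot be read here. Treatment time is not stated, nor whether replicates came from separate cultures, so the spread that p-values measure here may be technical.

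In the Hippo pathway, the kinases MST1 and MST2 activate LATS1 and LATS2, which phosphorylate YAP and TAZ and hold them in the cytoplasm or mark them for degradation. Unphosphorylated YAP and TAZ enter the nucleus, bind TEAD factors on DNA and switch on genes such as CCN1, CCN2 and ANKRD1. LATS2 and AMOTL2 are themselves targets, which makes a negative feedback loop. In stellate cells YAP and TAZ are known to become active on stiff matrix and during the change to a myofibroblast. Because this control acts on protein phosphorylation and location, mRNA levels do not measure YAP or TAZ activity directly.

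TEAD factors recognise DNA with the core GGAATG, so the promoter of each gene was searched for it on both strands (read as CATTCC on the other strand), together with TGANTCA, the motif of AP-1, a factor that often binds near TEAD. No match of one motif overlapped a match of the other in these genes, and the windows run from 250 bases before to 50 after each start in a RefSeq table on GRCh38.p14. The table had 12 starts for 8 of the genes, and TEAD1 and TEAD4 were not matched. The TEAD core was in 6 of the 12 windows, 1 for each of 6 genes. By comparison it was in 14.0% of all 35116 windows of this length, and in 5 of 12 windows of other YAP/TAZ target genes. The AP-1 motif was in 1 of the 12 windows, that of ANKRD1, and in 7.71% of all windows. The 250 bases before the ANKRD1 start (chr10:90921088-90921337, minus strand) are shown because this gene had the lowest ratio of LIG to TGF-β level of the 10 and is the 1 gene with more than 1 core motif. Capitals mark 2 TEAD cores, which begin 220 and 128 bases before the start, and the AP-1 motif, which begins 195 bases before it. GENCODE release 29 places the start of this minus-strand gene further upstream, at 90921276, inside the stretch shown. By that annotation the TEAD core at 128 bases lies within the gene, so positions before the start depend on the annotation used.
ANKRD1 promoter: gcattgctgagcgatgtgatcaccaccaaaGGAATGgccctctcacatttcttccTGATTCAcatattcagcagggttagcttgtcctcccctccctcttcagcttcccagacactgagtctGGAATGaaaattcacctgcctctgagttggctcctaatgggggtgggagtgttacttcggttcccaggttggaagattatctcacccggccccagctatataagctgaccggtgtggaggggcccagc
The other 5 genes with a match are shown as 30 bases around the core, in capitals, to compare its flanks. LATS2 (chr13:21061560-21061589) has it 10 bases after its start, and YAP1 (chr11:102110273-102110302) begins it 162 bases before. GENCODE release 29 places the start of the minus-strand gene LATS2 at 21061547, so by that annotation its core lies before the start. AJUBA (chr14:22976884-22976913) and AMOTL2 (chr3:134374499-134374528, core on the other strand) begin it 59 and 69 bases before their first listed starts. AXL (chr19:41226531-41226560, core on the other strand) begins it 212 bases before its second listed start. Starts are listed by coordinate. In AJUBA, AMOTL2 and AXL the matched start lies further into the gene, and the window of the other listed start had no core.
LATS2 site: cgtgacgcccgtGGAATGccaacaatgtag
YAP1 site: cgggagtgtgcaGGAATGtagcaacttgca
AJUBA site: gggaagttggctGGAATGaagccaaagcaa
AMOTL2 site: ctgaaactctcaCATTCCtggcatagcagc
AXL site: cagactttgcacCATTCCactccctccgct
A match is a run of letters and not a measured binding site. The windows of WWTR1 and AMOTL1 held neither motif.

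**Figure D1:**
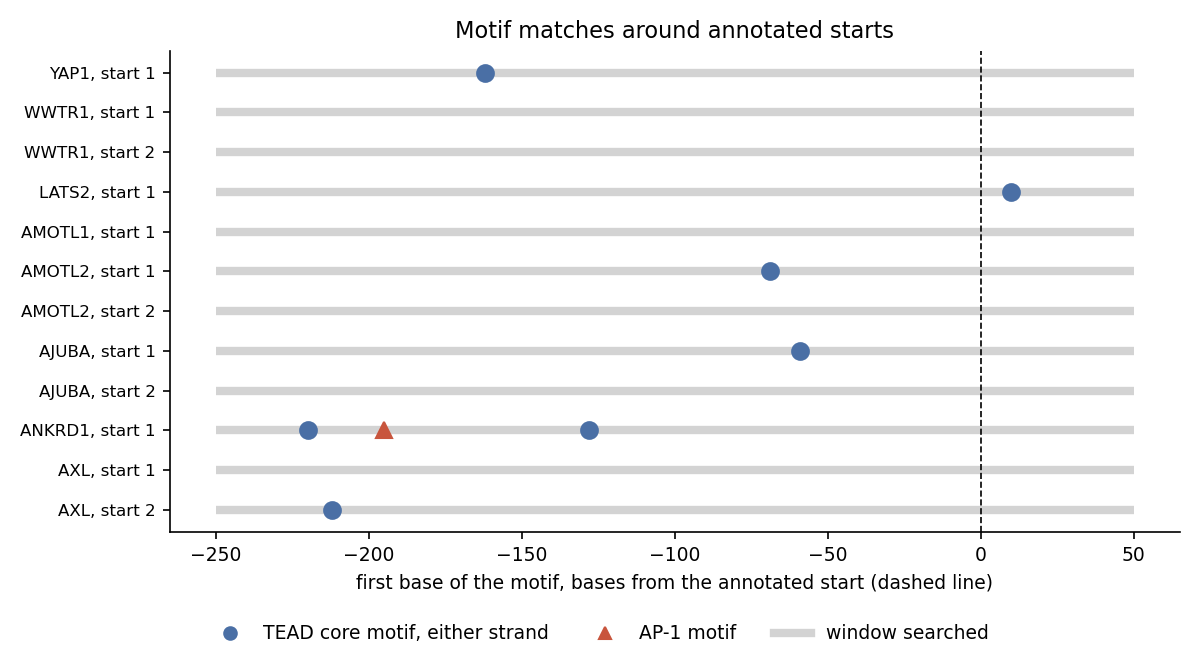
Positions of motif matches in the 12 RefSeq promoter windows of 8 genes. The x axis gives the first base of each match in bases from the annotated start, circles are TEAD cores, the triangle is the AP-1 motif and grey bars are the windows searched. ANKRD1 holds 2 TEAD cores with the AP-1 motif between them, and LATS2 has its core just after the RefSeq start.

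The libraries were of similar depth, at 38401783 to 39260090 fragments each. On the first principal component, with 55.1% of the variance, TGF-β replicate 2 and LIG replicate 3 stood away from the remaining 4; the groups separated on the second, with 23.8%. Of the stellate cell and myofibroblast markers, COL1A1 was at 496 to 691 FPKM, VIM at 1737 to 2091 FPKM and ACTA2 at 2.11 to 3.43 FPKM, whereas DES was at 0 to 0.0115 FPKM and LRAT was not analysed here. Among them COL3A1 fell from 20.3 ± 2.41 to 9.96 ± 1.598 FPKM (SD, n = 3 each; log2 change -0.96, limma adjusted p = 0.0144) and SPARC fell from 507 ± 2.89 to 368 ± 13.9 FPKM (-0.46, adjusted p = 0.0435). COL1A1, at 665 ± 41.0 and 503 ± 10.4 FPKM, and PDGFRB, at 4.99 ± 0.72 and 3.32 ± 0.59 FPKM, were lower in every LIG library without passing (limma adjusted p = 0.118 and 0.257). Without TGF-β replicate 2 and LIG replicate 3, COL1A1 and PDGFRB passed (limma adjusted p = 0.00045 and 0.0099), where 4.65% of all genes pass. VIM and ACTA2 did not pass there (limma adjusted p = 0.994 and 0.647). The part of these markers in the results was not tested. Of 15 markers of hepatocytes, cholangiocytes, endothelial cells and leukocytes that had values, SERPINA1, KRT7, SOX9 and CD68 were above 1 FPKM in every library, PTPRC was at most 0.016 FPKM and KRT19 at most 0.112 FPKM. Of the first 4, SOX9 was lower in every LIG library than in any TGF-β library, without passing the test (limma adjusted p = 0.328). KRT7 passed without TGF-β replicate 2 and LIG replicate 3 (log2 change -0.38, limma adjusted p = 0.0324). SERPINA1, SOX9 and CD68 did not pass there (limma adjusted p = 0.626, 0.0813 and 0.742). The part of other cell types in the results was not tested.

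With LIG, none of the 10 genes passed the test over all genes, and the clearest differences were in ANKRD1, AJUBA and LATS2, each lower in all 3 LIG libraries than in any TGF-β library. Their mean FPKM with LIG was 0.779, 0.847 and 0.871 times that with TGF-β. The coactivators, the TEADs, the angiomotins and AXL overlapped between the groups. Over all genes tested, 0.692% passed at adjusted p below 0.05 (limma, Benjamini-Hochberg over all genes, two-sided), 0.187% higher and 0.505% lower with LIG, so a count of 0 of 10 is near the background. At unadjusted p below 0.05 the count was 3 of 10, all lower, against 8.41% of all genes, or 4.21% lower. Groups did not overlap, with LIG lower, in 3 of 10, against 6.73% of all genes, and with LIG higher in 0 of 10, against 9.07%; in either direction the share of all genes was 15.8%. The 10 genes were chosen with earlier results of these data known, so these shares are a description. Their median log2 change was -0.075, against 0.025 for all genes tested.

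YAP1 encodes YAP, the main coactivator of the pathway (chromosome 11, 102110461 to 102233423, plus strand). Values, given throughout in the order of replicates 1, 2 and 3, were 42.2, 40.6 and 42.0 FPKM for TGF-β and 41.3, 39.4 and 33.2 FPKM for LIG. LIG replicate 3 was below the rest, and LIG replicate 1 lay within the TGF-β range. The means were 41.6 ± 0.85 FPKM (SD, n = 3) and 38.0 ± 4.23 FPKM (n = 3), a log2 change of -0.13 with a 95% interval from -0.33 to 0.065 (limma adjusted p = 0.777). Without LIG replicate 3 the log2 change was -0.043. All log2 changes are LIG minus TGF-β on the log2(FPKM + 1) scale, which slightly understates ratios of low genes.

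WWTR1, which encodes the YAP paralog TAZ (chromosome 3, 149517235 to 149736714, minus strand), was at 5.62, 5.58 and 5.77 FPKM in the TGF-β libraries, against 5.06, 6.15 and 4.80 FPKM in those with LIG. The LIG libraries lay on both sides of the TGF-β range. The log2 change was -0.077 with an interval from -0.28 to 0.13 (limma adjusted p = 0.923), and was -0.016 without LIG replicate 3 and -0.17 without LIG replicate 2. YAP1 had the higher level of the pair in every library. The ratio of YAP1 to WWTR1 FPKM was 7.36 ± 0.13 (SD, n = 3) with TGF-β and 7.17 ± 0.91 (n = 3) with LIG, which did not differ beyond the spread (exact permutation test, two-sided, p = 0.7; the smallest p that 3 against 3 allows is 0.1).

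TEAD1 and TEAD4 encode DNA-binding partners of YAP and TAZ. TEAD1 (chromosome 11, 12674591 to 12944483, plus strand) was at 25.2, 21.4 and 25.2 FPKM in the TGF-β libraries, against 26.5, 26.0 and 16.8 FPKM in those with LIG. Its lowest values were in TGF-β replicate 2 and LIG replicate 3, and LIG replicates 1 and 2 were above all TGF-β libraries. The log2 change of -0.073 had a wide interval, from -0.45 to 0.30 (limma adjusted p = 0.974), and was 0.054 (adjusted p = 0.460) without the 2 libraries that stand apart. TEAD4 (chromosome 12, 2959330 to 3040673, plus strand) was at 13.4, 12.3 and 15.0 FPKM in the TGF-β libraries, against 14.8, 13.6 and 13.9 FPKM in those with LIG, so the LIG values lay inside the TGF-β range. Its log2 change was 0.054 with an interval from -0.13 to 0.24 (limma adjusted p = 0.950), and -0.0086 without TGF-β replicate 2.

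Among the 4 TEAD genes, TEAD1 had the largest share of summed TEAD FPKM in every library. That share was 41.9% to 46.0% in 5 libraries and 34.5% in LIG replicate 3. TEAD4 held 23.4% to 28.5%, TEAD3 held 20.4% to 27.4% and TEAD2 held 7.84% to 9.55%. TEAD2 was on average at 5.04 ± 0.33 FPKM (TGF-β) and 4.76 ± 0.32 FPKM (LIG) (n = 3 each), and TEAD3 at 13.2 ± 0.54 and 12.3 ± 0.91 FPKM; neither passed (limma adjusted p = 0.909 and 0.822). The ratio of TEAD1 to TEAD4 was 1.76 ± 0.10 with TGF-β and 1.64 ± 0.37 with LIG (n = 3 each; exact permutation test, two-sided, p = 0.9).

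LATS2 encodes the kinase that phosphorylates YAP and TAZ and is also one of their targets (chromosome 13, 20973032 to 21061547, minus strand). It was at 10.1, 9.49 and 9.92 FPKM in the TGF-β libraries, against 8.89, 8.90 and 7.87 FPKM in those with LIG. Every LIG library was below every TGF-β library, and LIG replicate 3 was the lowest. The log2 change was -0.18 ± 0.070 (SE), with an interval from -0.34 to -0.020, and it did not pass over all genes (limma adjusted p = 0.515). The adjusted p was 0.126 without the libraries that stand apart. Its paralog LATS1 was on average at 7.02 ± 0.27 FPKM (TGF-β) and 6.64 ± 1.15 FPKM (LIG) (n = 3 each; limma adjusted p = 0.943), and the LIG libraries lay on both sides of the TGF-β range.

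AMOTL1 and AMOTL2 encode angiomotin-like proteins, which bind YAP and keep it at junctions and actin. AMOTL1 (chromosome 11, 94706431 to 94876753, plus strand) was at 18.8, 13.7 and 18.9 FPKM in the TGF-β libraries, against 19.8, 19.6 and 14.1 FPKM in those with LIG. Again TGF-β replicate 2 and LIG replicate 3 were low, and the other 4 libraries lay within 18.8 to 19.8 FPKM. Its log2 change was 0.053 with an interval from -0.31 to 0.41 (limma adjusted p = 0.979), and the sign turned without TGF-β replicate 2 (-0.092) and without either of LIG replicates 1 (-0.025) and 2 (-0.019).

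AMOTL2, which is also a YAP/TAZ target (chromosome 3, 134355874 to 134375479, minus strand), was at 18.9, 18.5 and 19.4 FPKM in the TGF-β libraries, against 19.3, 20.1 and 19.1 FPKM in those with LIG. The log2 change was 0.041, and the interval from -0.094 to 0.18 bounds the ratio of FPKM + 1 between 0.937 and 1.13 (limma adjusted p = 0.945). The ratio of AMOTL1 to AMOTL2 was 0.90 ± 0.14 with TGF-β and 0.91 ± 0.15 with LIG (n = 3 each; exact permutation test, two-sided, p = 1). The libraries that stand apart had 0.740 (TGF-β) and 0.737 (LIG), and the remaining 4 had 0.972 to 1.03. The third angiomotin, AMOT, was on average at 0.97 ± 0.14 FPKM (TGF-β) and 0.95 ± 0.28 FPKM (LIG) and was not tested, since its mean was below 1 FPKM.

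AJUBA encodes a LIM-domain adaptor that binds and restrains LATS kinases at junctions under tension (chromosome 14, 22971174 to 22982642, minus strand). It was at 19.3, 18.2 and 18.7 FPKM in the TGF-β libraries, against 16.1, 15.7 and 15.8 FPKM in those with LIG. The groups were well apart for their spread, with the lowest TGF-β library at 18.2 FPKM and the highest LIG library at 16.1 FPKM. Means were 18.7 ± 0.54 and 15.9 ± 0.18 FPKM (SD, n = 3 each), and the log2 change was -0.23 ± 0.058 (SE) with an interval from -0.36 to -0.093. This did not pass over all genes (limma adjusted p = 0.235). Without the libraries that stand apart the log2 change was -0.24 and passed (adjusted p = 0.0165, where 4.65% of all genes pass). The libraries left there are the more alike ones of each group.

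ANKRD1 encodes a nuclear ankyrin-repeat protein and is among the most used readouts of YAP/TAZ and TEAD (chromosome 10, 90912096 to 90921276, minus strand). It was at 29.4, 30.9 and 27.9 FPKM in the TGF-β libraries, against 24.3, 20.3 and 24.2 FPKM in those with LIG. All LIG libraries were lower, and LIG replicate 2, not a library that stands apart, was the lowest. The log2 change was -0.35 ± 0.084 (SE), with an interval from -0.54 to -0.16 (limma adjusted p = 0.188). It had 1398 to 2160 fragments per library. The change was -0.35 (adjusted p = 0.0333) without the libraries that stand apart, and the adjusted p lay between 0.106 and 0.564 when any 1 library was left out.

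AXL encodes a receptor tyrosine kinase that YAP and TEAD are known to induce (chromosome 19, 41219203 to 41261766, plus strand). It was at 149.4, 149.9 and 149.4 FPKM in the TGF-β libraries, against 149.6, 148.8 and 145.0 FPKM in those with LIG. Its SD with TGF-β, 0.318 FPKM, was small for its level, and LIG replicate 3 was the lowest. The log2 change was -0.017, and the interval from -0.16 to 0.12 bounds the ratio of FPKM + 1 between 0.896 and 1.09 (limma adjusted p = 0.985). Of the target genes, then, ANKRD1 and LATS2 did not overlap between groups, and AXL and AMOTL2 did; whether ANKRD1 differed from AXL in its response was not tested.

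**Figure D2:**
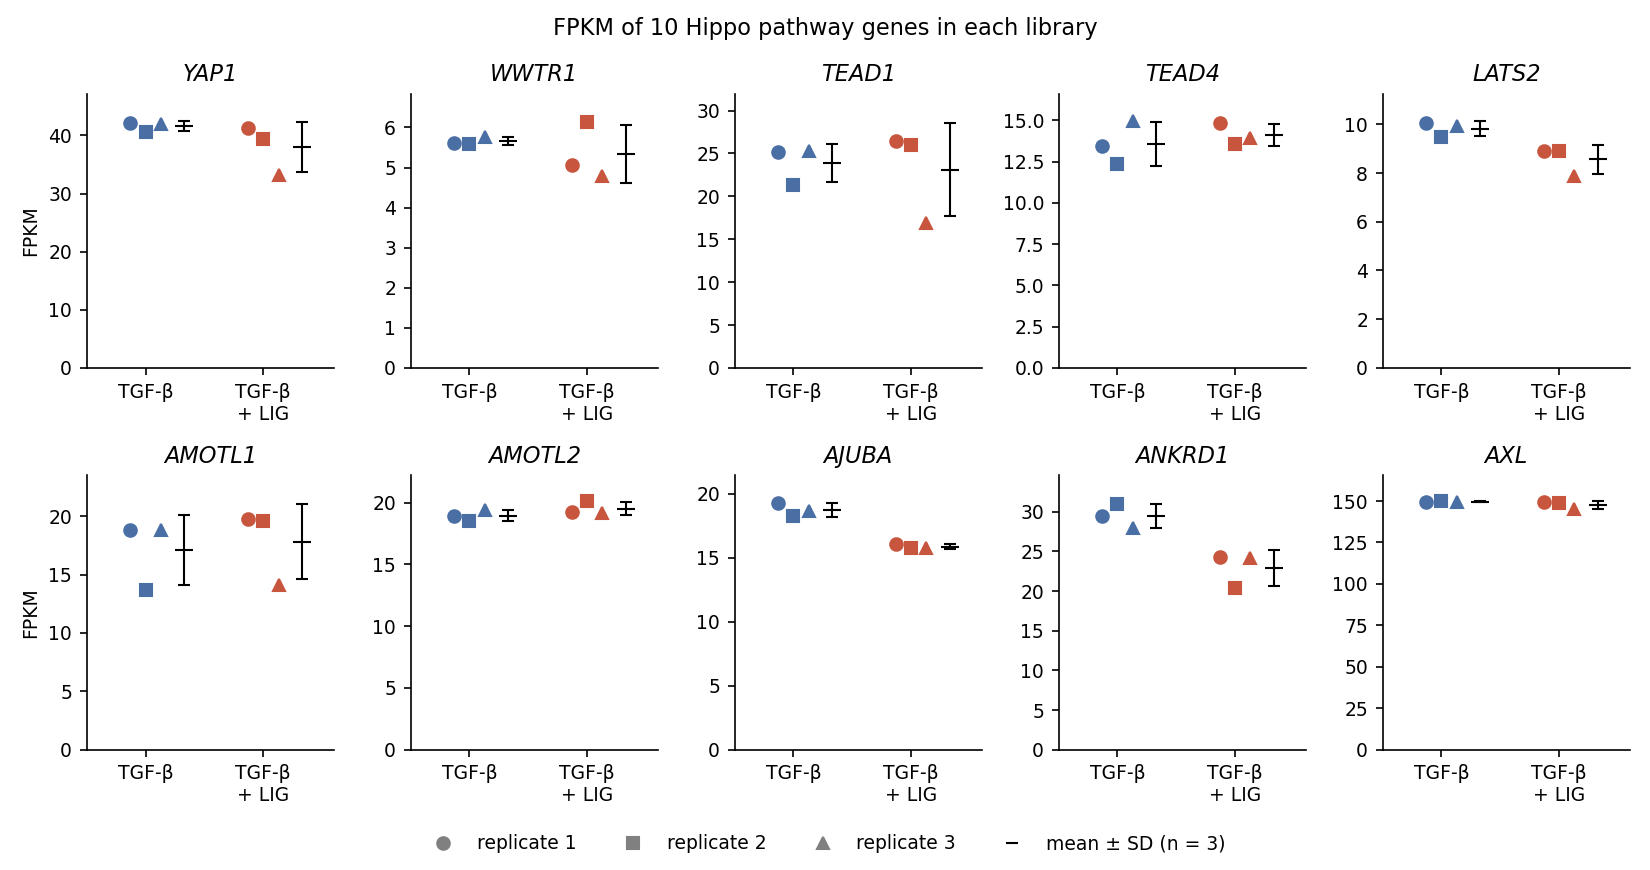
FPKM of the 10 genes in each library, with TGF-β in blue and TGF-β with LIG in red, symbols for replicates, and the mean ± SD (n = 3) in black on axes that start at 0. The groups are apart for LATS2, AJUBA and ANKRD1, and TGF-β replicate 2 and LIG replicate 3 are low for TEAD1 and AMOTL1.

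In order of FPKM with TGF-β, AXL came first and was above 97.1% of all genes tested, then YAP1, ANKRD1 and TEAD1, then AMOTL2, AJUBA and AMOTL1, then TEAD4, LATS2 and WWTR1. The ranges of neighbours overlapped for AMOTL2 with AJUBA, AJUBA with AMOTL1, and AMOTL1 with TEAD4, and were apart for the others. WWTR1, the lowest, was above 36.9% of genes tested. With LIG the order was the same but for 2 exchanges. TEAD1 and ANKRD1 overlapped there, at 23.1 ± 5.41 and 22.9 ± 2.24 FPKM (SD, n = 3 each), and AJUBA came after AMOTL1, at 15.9 against 17.8 FPKM.

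The 2 libraries that stand apart differed from the rest of their group by gene length. Over all genes tested, log2(FPKM + 1) in LIG replicate 3 minus the mean of LIG replicates 1 and 2 had a median of 0.28 for 1887 genes under 2000 bases and of -0.14 for 4040 genes of 5000 bases or more. In TGF-β replicate 2 the medians were 0.18 and -0.066. AMOTL1 and TEAD1 have the longest gene models of the 10, at 10073 and 9417 bases as implied by their FPKM values. The same difference was -0.45 and -0.61 for them in LIG replicate 3, and -0.43 and -0.23 in TGF-β replicate 2. ANKRD1, at 1790 bases, was at 0.12 and 0.11, and TEAD4, at 1723 bases, was at -0.026 and -0.19, on the other side of 0 from the median of its class. With the trend on gene length removed from each library, an alternative chosen after seeing the data, ANKRD1 changed by -0.39 (limma adjusted p = 0.02004) and AJUBA by -0.24 (adjusted p = 0.0296), where 2.62% of all genes pass. LATS2 (adjusted p = 0.124) and the other 7 did not pass.

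**Figure D3:**
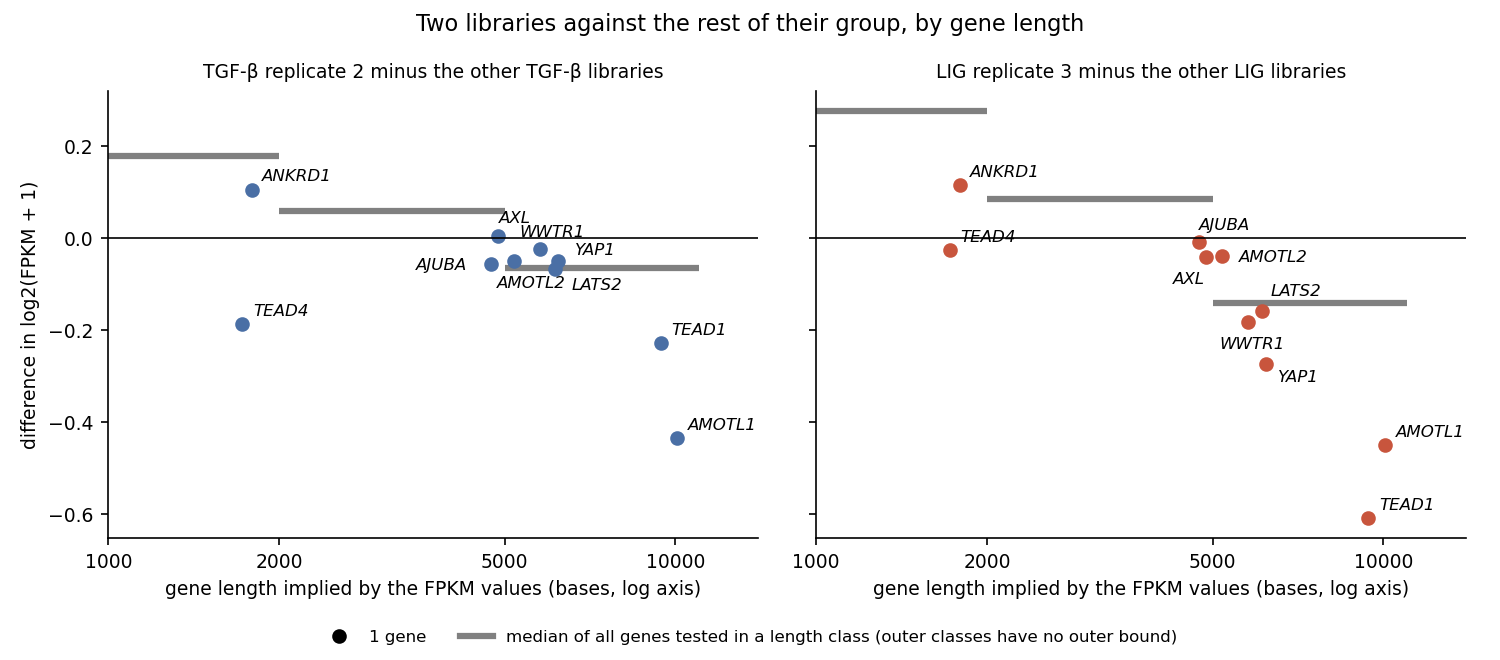
Difference in log2(FPKM + 1) between a library that stands apart and the mean of the other 2 of its group, against gene length in bases on a log axis, for TGF-β replicate 2 on the left and LIG replicate 3 on the right. Points are the 10 genes and grey bars are medians of all genes tested in a length class; TEAD1 and AMOTL1, the longest, are the lowest points in both panels.

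Of 18 other YAP/TAZ target genes, listed from a signature of such targets, 17 were tested, and IGFBP3, F3 and TGFB2 fell with LIG while 14 did not pass. That is 3 of 17, where 0.505% of all genes passed as lower and 0.692% in either direction. The median log2 change was -0.17, against 0.025 for all genes. This list was chosen with earlier results of these data known, and leaves out the signature genes already described above. The shares and the median are therefore a description. IGFBP3, whose product binds insulin-like growth factors, was at 8.04, 9.10 and 7.99 FPKM in the TGF-β libraries, against 3.22, 3.02 and 4.09 FPKM in those with LIG (log2 change -1.08, limma adjusted p = 0.00528, and 0.0608 with no filter on low values). F3, tissue factor, changed by -0.63 (adjusted p = 0.0058, and 0.0607 without TGF-β replicate 3). TGFB2, a TGF-β ligand, changed by -0.90 (adjusted p = 0.0435), and passed in 1 of the 6 fits without a single library, that without LIG replicate 3 (0.208 without TGF-β replicate 3). It did not pass rescaled to TPM (0.109), with no filter (0.228) or with the replicate block (0.0563). These 3 genes are also targets of other pathways.

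CCN2 and CCN1, matricellular proteins and the most used targets beside ANKRD1, were not called. CCN2 was at 437, 469 and 423 FPKM in the TGF-β libraries, against 359, 337 and 383 FPKM in those with LIG, lower in every LIG library (log2 change -0.30, limma adjusted p = 0.288). It passed without the libraries that stand apart (adjusted p = 0.00496), rescaled to TPM (0.0413), after quantile normalization (0.0370) and with the length trend removed (0.00186). It did not pass in the other 15 alternatives, with adjusted p of 0.115 in voom, 0.830 with the replicate block and 0.101 to 0.768 when 1 library was left out. CCN1 was at 439.8, 478 and 446 FPKM in the TGF-β libraries, against 417, 406 and 464 FPKM in those with LIG, which overlap (log2 change -0.084, limma adjusted p = 0.902). Side by side, ANKRD1 and CCN2 had log2 changes of -0.35 ± 0.084 and -0.30 ± 0.086 (SE). RBMS3, CRIM1 and CCDC80 had log2 changes of -0.28, -0.31 and -0.21 without passing (limma adjusted p = 0.218, 0.533 and 0.517), and each was lower in all 3 LIG libraries. For CRIM1 the value was -0.16 without LIG replicate 3. NT5E, an ectonucleotidase named after its values were seen, was the 1 target of the 17 higher in every LIG library (164 ± 1.07 and 178 ± 3.63 FPKM, n = 3 each; log2 change 0.12, limma adjusted p = 0.699). Groups did not overlap, with LIG lower, in 7 of the 17, against 6.73% of all genes. With LIG higher they did not overlap in 1 of the 17, against 9.07% of all genes. Without the libraries that stand apart, 7 of the 17 fell and 1 rose at adjusted p below 0.05 in limma, where 2.69% of all genes fell and 1.95% rose.

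Of 42 other Hippo pathway genes (kinases, scaffolds, TEADs, cofactors and subunits of the STRIPAK phosphatase complex), 35 were tested. None passed in limma in the main comparison, where 0.692% of all genes passed. Without the libraries that stand apart none passed either, where 4.65% of all genes passed. At unadjusted p below 0.05 there were 2 and 8 of the 35 in these fits, against 8.41% and 20.4% of all genes. The median log2 change of the 35 in the main comparison was 0.0059. Among those with the smallest adjusted p were FRMD6, a scaffold that promotes the kinase cascade (log2 change -0.23, limma adjusted p = 0.563), DLG1, a polarity scaffold (-0.19, adjusted p = 0.611), and VGLL4, which competes with YAP for TEAD (-0.14, adjusted p = 0.635). The log2 changes without LIG replicate 3 were -0.13 for FRMD6, -0.098 for DLG1 and -0.15 for VGLL4. FRMD6 had the highest level of the list, on average at 322 ± 3.02 FPKM (TGF-β) and 276 ± 31.2 FPKM (LIG) (n = 3 each). Of the 7 not tested, VGLL1 was not analysed here, and AMOT, VGLL2, FAT4, DCHS1, CSNK1E and MOB4 had a mean under 1 FPKM. CSNK1E and MOB4 share exons with read-through genes, so their values are uncertain.

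**Figure D4:**
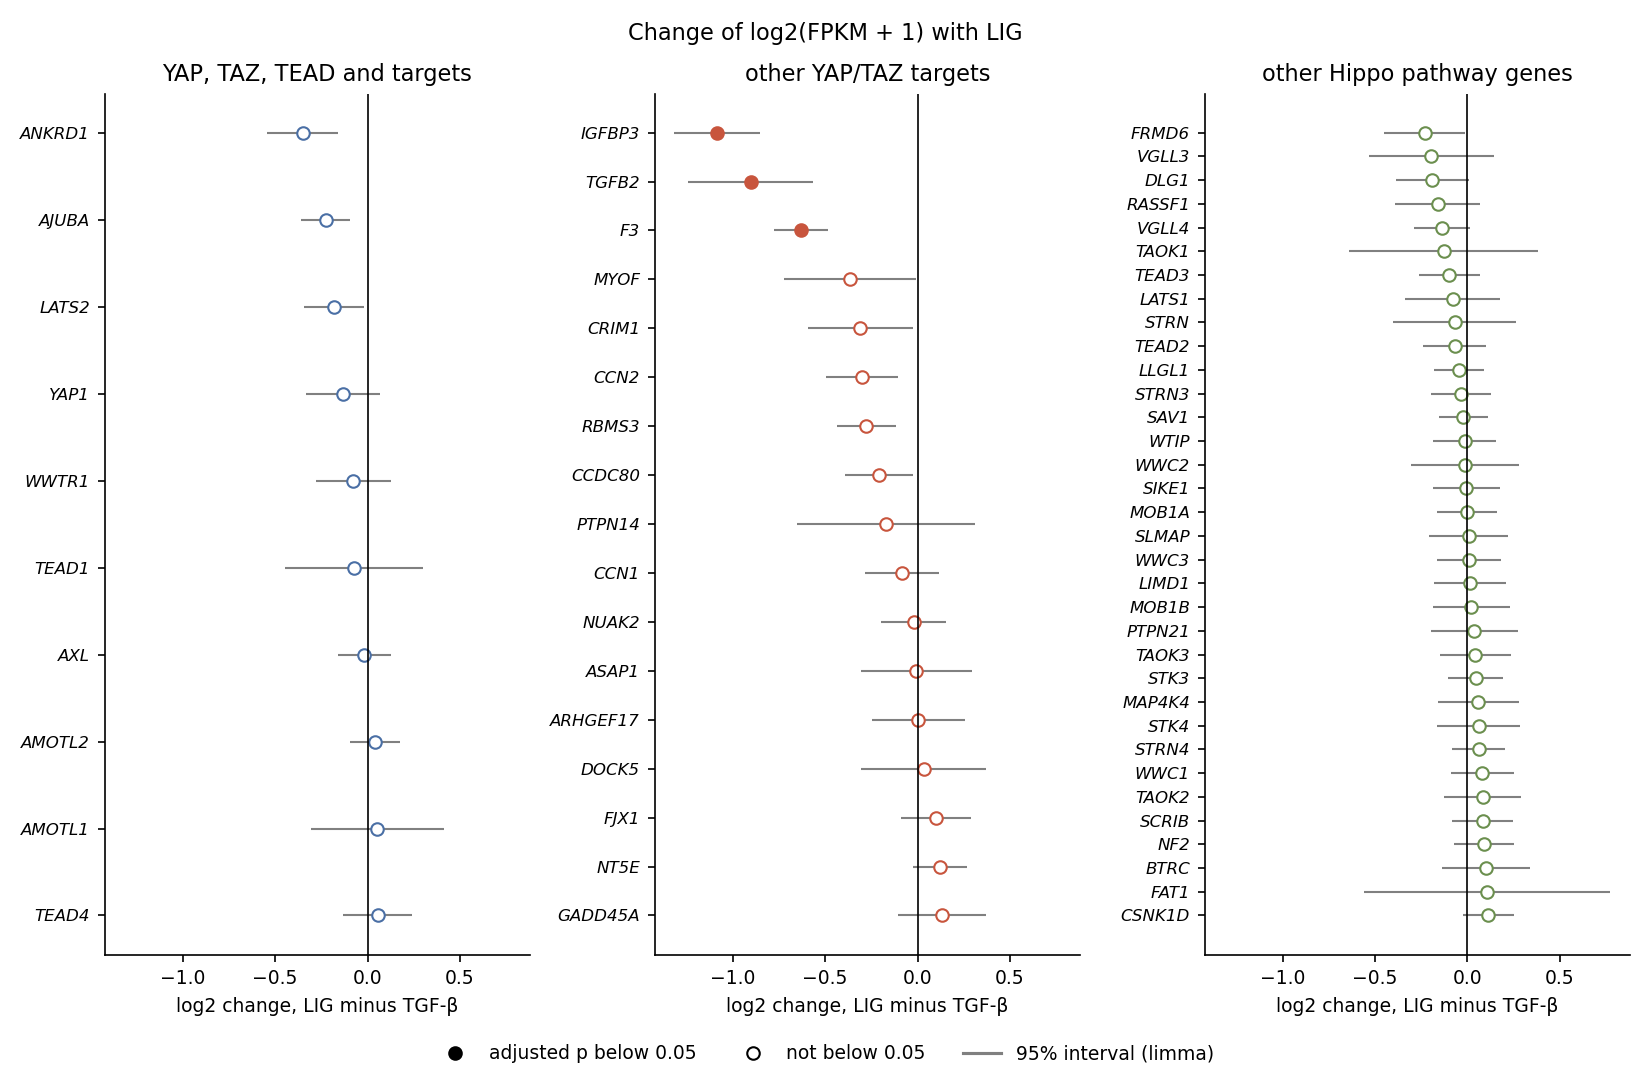
Change in log2(FPKM + 1), LIG minus TGF-β, with limma 95% intervals, for the 10 genes (left), 17 other YAP/TAZ target genes (middle) and 34 of the 35 other Hippo pathway genes tested (right). Filled points passed at adjusted p below 0.05; IGFBP3, TGFB2 and F3 are the filled points, and ANKRD1 and AJUBA have the lowest values on the left.

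Exons of YAP1, WWTR1, AMOTL1 and AXL overlap exons of another gene on the opposite strand, and those of AMOTL2 and AJUBA overlap another gene on their own strand, in GENCODE release 29. Use of strand in counting is not stated, so fragments from genes on the opposite strand cannot be told apart here. Strand would not separate fragments of a gene on the same strand. The antisense gene WWTR1-AS1 was at 0.03 to 0.137 FPKM, far below WWTR1. Levels of the other overlapping genes are not given here.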

How the data were processed

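The authors deposited FPKM values, with a column for each library. Tools named without roles in the submitters' processing notes are HISAT2 2.1.0, fastp and DESeq2, with build GRCh38.p13; counter, annotation and strand are not given in the sources used here. FPKM values of each gene step in whole fragments. Fragments were recovered for all 22701 genes (100% of 114123 values above 0 were whole within 0.01) and used for depth, gene length and 1 alternative. The filter was a mean of 1 FPKM or more.

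On the log2(FPKM + 1) scale, limma 3.58.1 compared the groups (group only, mean-variance trend, two-sided), with Benjamini-Hochberg adjustment over 10695 genes at 0.05, residual degrees of freedom 4 and prior 4.10. The fit was tested on simulated data. Alternatives were other pseudocounts, filters, scalings and variance models, the replicate number as a block, voom with TMM scaling, and leaving out libraries; removing a length trend was added later. Members and lists were chosen with earlier results of these data known. Named were all 10 members, of each list the genes that passed and the next 4, and paralogs. A gene that this rule names among the other Hippo pathway genes is not reported here. Coordinates came from GENCODE 29 (GRCh38). R 4.3.3 and Python 3.11.15 were used.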

Additional observations from a re-analysis of the deposited data

How the results depend on the processing

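The 10 genes were refitted under 19 alternatives, 190 fits in all. In 180 of them direction and call were kept, in 4 a gene came to pass and in 6 the sign turned. Without TGF-β replicate 2 and LIG replicate 3 together, 2 of the 10 passed, AJUBA (-0.24) and ANKRD1 (-0.35), and 497 genes in all and 8 of the other YAP/TAZ target genes passed. In the same fit TEAD1 was at 0.054, LATS1 at 0.044, and the log2 ratio of TEAD1 to TEAD4 at 0.056. With the length trend removed, 2 of the 10 (AJUBA at -0.24, ANKRD1 at -0.39), 280 genes in all and 5 other targets passed. With no filter 14 genes in all and 1 other target passed. The cause of these differences was not tested.

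With 1 library left out at a time, 0 of the 10 passed; the count over all genes lay between 11 and 93 and that of other targets between 1 and 3. The log2 change lay between -0.20 and -0.043 for YAP1, -0.17 and -0.016 for WWTR1, -0.18 and 0.13 for TEAD1, -0.0086 and 0.12 for TEAD4, -0.092 and 0.20 for AMOTL1, and -0.16 and 0.052 for LATS1. The change in log2 ratio lay between -0.14 and 0.032 for YAP1 to WWTR1, -0.26 and 0.068 for TEAD1 to TEAD4, and -0.12 and 0.16 for AMOTL1 to AMOTL2. Same-numbered libraries correlated at 0.47, -0.57 and -0.34 in their deviations from group means. TGF-β replicate 2 and LIG replicate 3, which stand apart, correlated at 0.68, and deviations within a group are not independent. Whether replicate numbers mark shared cultures therefore cannot be told from these values. With the replicate block, 22 genes in all and none of the 10 passed (AJUBA adjusted p = 0.721, ANKRD1 adjusted p = 0.533), and the target TGFB2 no longer passed (adjusted p = 0.0563). Not every library correlated best with its own number. Each of the 10 genes had at least 829 fragments in every library; counting error was not compared with the spread between libraries.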
